A study of Mus musculus with 6 samples.

Results

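The transcription factors and hormone receptors that set mammary epithelial lineage were examined in Wnt1-YL cells with and without knockdown of Sca-1. The members are 10 genes chosen by name: Trp63, Sox9, Sox10, Foxc1, Elf5, Gata3, Foxa1, Esr1, Pgr and Prlr. All probe sets that the array's annotation table assigns to them were taken, 22 of 45037 tested. They measure 9 of the 10 genes, and Prlr is not analysed here because the annotation table used here assigns it no probe set. RNA was hybridized to 6 Affymetrix mouse arrays, 3 from cells carrying an shRNA against luciferase (shLuc, the control) and 3 from cells carrying an shRNA against Sca-1 (shSca-1). Every sample is the same mouse mammary tumor line, which was derived from an invasive mammary tumor of the MMTV-Wnt1 strain (FVB/n background), in which a mouse mammary tumor virus promoter drives Wnt1. Both groups were transduced with a pLKO lentivirus, selected with puromycin and grown in culture. The medium listed for them has bovine serum, insulin and EGF, and names no estrogen, progesterone or prolactin. The sample titles call each array a biological replicate. The sources do not say whether the line is a single clone, or whether each replicate was a separate transduction or culture, so the p-values below measure only the spread between these arrays.

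The mammary epithelium has an outer basal (myoepithelial) layer and an inner luminal layer, and the luminal cells divide into hormone-sensing cells and progenitors that form milk-producing alveoli. p63, the product of Trp63, maintains the basal layer. Gata3, Foxa1 and the estrogen receptor (Esr1) act in hormone-sensing luminal cells, where the progesterone receptor (Pgr) is a classical estrogen receptor target, while Elf5 directs the alveolar fate downstream of the prolactin receptor (Prlr). Sox9 and Sox10 are related SRY-box factors linked to mammary progenitor states, and Foxc1 is a forkhead factor known as a marker of basal-like breast cancer.

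The array values are intensities, the brightness of a probe set on a linear scale after the authors' modelling and normalization between arrays. Levels were compared within a probe set only, and the median of all probe sets on an array, which lay between 37.3 and 40.6, is given where it helps to judge a dim signal. Ly6a, the gene of Sca-1, was 7646, 7362 and 2843 on shLuc replicates 1, 2 and 3 and 285, 314 and 306 on the shSca-1 arrays, lower on every shSca-1 array. The difference in mean log2 intensity between the groups (shSca-1 minus shLuc, called the log2 fold change from here on) was -4.17 for it, with an adjusted p of 0.051 in limma, and -4.64 without shLuc replicate 3 (adjusted p = 5.2e-07, limma). The array of shLuc replicate 3 stood apart. Over 45037 probe sets it resembled its closest array at a Pearson's r of 0.924 on the log2 scale, given as a description, and the lowest such value among the other arrays was 0.957. Over 27 luminal epithelial markers, the summed intensity was 42344 on shLuc replicate 3, 3472 and 3338 on the other shLuc arrays and 2986 to 4199 on the shSca-1 arrays. Over 27 basal cell genes the sums were 31586 on this array, 66333 and 66222 on the other shLuc arrays, and 55856 to 66852.5 on the shSca-1 arrays. Of the markers of other cell types, 7 of 8 fibroblast, 7 of 7 measured adipocyte, 7 of 8 endothelial and 4 of 8 immune markers were under 100 on all 6 arrays. The fibroblast markers summed to 384 on shLuc replicate 3 and 179 to 443 elsewhere, the adipocyte markers to 146 and 99.5 to 144, the immune markers to 1157 and 559 to 758 (Cd14 was 809.9 on shLuc replicate 3), and the endothelial markers to 183 and 712 to 889 (Eng was 32.8 and 551 to 729). The endothelial marker Pecam1 was at most 2.41 and the leukocyte marker Ptprc at most 20.5 on any array. Other immune markers were brighter, with Csf1r at 104.5 to 143 and Adgre1 at 111 to 164 over the 6 arrays. Cd68 was 311, 298 and 32.9 on the shLuc arrays and 53.9, 77.6 and 212 on the shSca-1 arrays. The main comparisons are therefore given with and without shLuc replicate 3, and the part of the luminal and basal markers in the results was not tested.

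None of the 9 measured genes passed the test between shSca-1 and shLuc cells on all 6 arrays. Each gene was represented by its brightest probe set, judged by mean log2 intensity over the 6 arrays. In limma on 6 arrays, 0 of the 9 genes and 0 of the 22 probe sets had an adjusted p under 0.05, and 0 of each had an unadjusted p under 0.05. At that unadjusted threshold 10.6% of 18194 genes and 9.26% of 45037 probe sets were called, and at the adjusted one 0% of either. By the study's criteria, a p under 0.01 without adjustment together with over 1.5-fold difference, the count was 0 of 9, against 2.05% of all genes, and the methods' t-test also gave 0 at each of these thresholds. The intensities of the 3 shLuc and 3 shSca-1 arrays overlapped for all 9 brightest probe sets, while they were apart for 18.7% of all genes. The median log2 fold change of the 9 genes was -0.35 on 6 arrays, with 8 of the 9 below 0, and 0.10 without shLuc replicate 3, with 4 of the 9 below 0. Over all 18194 genes the median was -0.04 in both cases. Without shLuc replicate 3, 0 of the 9 genes passed an adjusted p under 0.05, which 3.90% of all genes passed. At an unadjusted p under 0.05, 1 of the 9, Trp63, was called, and it was lower. That was so for 12.5% of all genes, and 19.8% were called in either direction. Of the 22 probe sets, 1 was called, as were 16.3% of all probe sets. The study's criteria took 0 of the 9, and 4.0% of all genes.

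**Figure D1:**
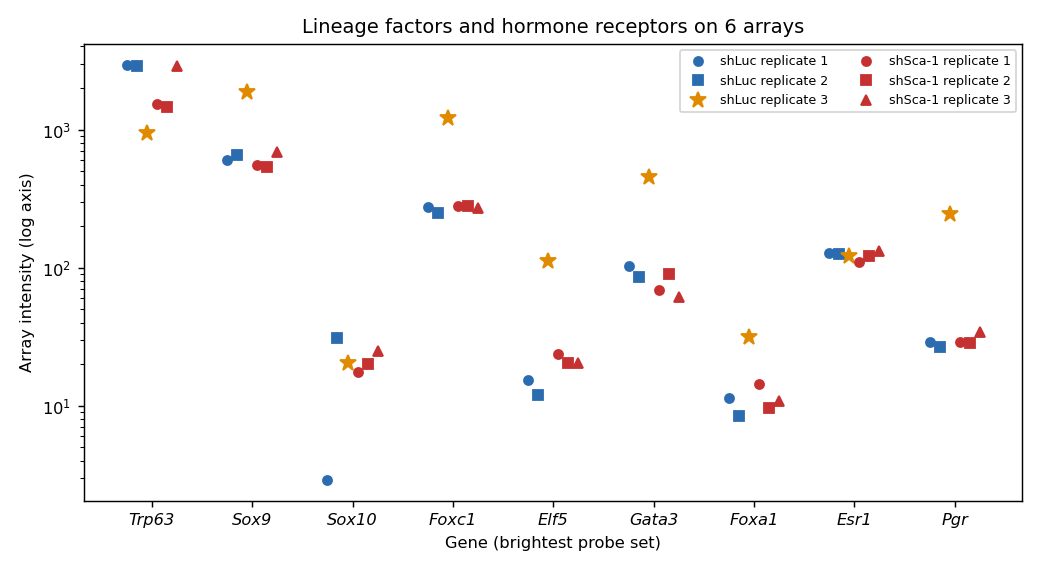
Intensity of the brightest probe set of 9 genes on each of 6 arrays, on a log axis, with shLuc in blue, shLuc replicate 3 as an orange star and shSca-1 in red. For Sox9, Foxc1, Elf5, Gata3 and Pgr the star lies over 2 times above every other array, and for Trp63 it is the lowest at 939.

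Trp63, the gene of the basal factor p63, was above the array median on every array in 3 of its 4 probe sets, and varied within both groups. Probe set 1418158_at was 2950.2 and 2869.7 on shLuc replicates 1 and 2, 939 on shLuc replicate 3, and 1531, 1464 and 2898 on shSca-1 replicates 1, 2 and 3. The third shSca-1 array thus lay with the first 2 shLuc arrays, the other shSca-1 arrays were lower, and shLuc replicate 3 was the lowest of all. The group means were 2253 ± 1139 (SD, n = 3) in shLuc and 1964 ± 809 (SD, n = 3) in shSca-1 cells, and the log2 fold change was -0.10 (standard error 0.48, 95% interval -1.23 to 1.04, adjusted p = 0.97, limma). Without shLuc replicate 3 it was -0.64 (standard error 0.26, 95% interval -1.25 to -0.03, unadjusted p = 0.041, adjusted p = 0.28, limma), and without shSca-1 replicate 3 it was -0.41 (adjusted p = 0.87, limma).

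The probe sets 1451876_a_at and 1452027_a_at, whose suffix marks probes shared by alternative transcripts of a gene, ran in a similar order. Probe set 1451876_a_at was 504, 393 and 181 on the shLuc arrays and 223, 309 and 520.0 on the shSca-1 arrays. Probe set 1452027_a_at was 399, 322 and 150.3 on the shLuc arrays and 236, 321 and 473 on the shSca-1 arrays. In both, shLuc replicate 3 was the lowest array and shSca-1 replicate 3 the highest, and the log2 fold changes on 6 arrays were 0.00 and 0.30 (adjusted p = 1.0 and 0.86, limma). Without shLuc replicate 3 they were -0.43 and -0.12 (adjusted p = 0.57 and 0.88, limma). Probe set 1459581_at was dim, between 21.7 and 48.5, and its shSca-1 values (27.2, 31.2 and 21.7) all lay below its shLuc values (48.5, 37.1 and 31.7), and the log2 fold change was -0.54 (standard error 0.28, adjusted p = 0.62, limma). Together with a probe set of Esr1, described with that gene, it was 1 of 2 of the 22 probe sets whose groups did not overlap with shSca-1 lower, as in 9.81% of all probe sets. Without shLuc replicate 3 the same 2 did not overlap in that direction, as in 19.6% of all probe sets. In a culture measured in bulk, fewer cells of a type and less RNA per cell cannot be told apart.

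**Figure D2:**
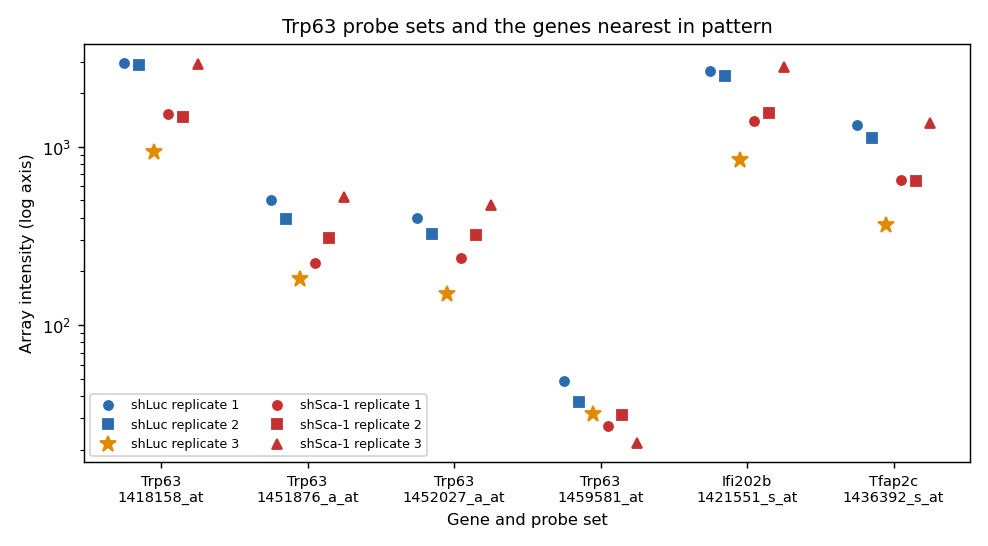
Intensity on each of 6 arrays, on a log axis, of the 4 Trp63 probe sets and of Ifi202b and Tfap2c, the genes nearest to probe set 1418158_at in pattern. In the 3 brighter Trp63 probe sets and in both other genes the orange star, shLuc replicate 3, is the lowest point, and the red triangle, shSca-1 replicate 3, lies with shLuc replicates 1 and 2 or above them.

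The genes most like Trp63 over the 6 arrays were Ifi202b, an interferon-inducible gene, and Tfap2c, which encodes the transcription factor AP-2γ of mammary epithelium. Likeness was the Euclidean distance between log2 values centred on each gene's own mean, over 6 arrays, among 9009 other genes with a mean intensity of 100 or more. Tfap2c, at a distance of 0.24, was 1320.0, 1125 and 365 on the shLuc arrays and 652, 641 and 1357 on the shSca-1 arrays. Ifi202b, at a distance of 0.23, was 2659, 2510.2 and 845 on the shLuc arrays and 1399, 1552 and 2799 on the shSca-1 arrays. The p53 family member Trp73 was 455, 419 and 137 on the shLuc arrays and 189.8, 225 and 322 on the shSca-1 arrays, and its log2 fold change was -0.31 on 6 arrays (adjusted p = 0.87, limma) and -0.87 without shLuc replicate 3 (adjusted p = 0.074, limma).

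Sox9, a gene of the SRY-box family linked to luminal progenitors, had overlapping values in the groups, and shLuc replicate 3 lay above all others. Its brightest probe set, 1451538_at, was 607, 659 and 1870.3 on the shLuc arrays and 557, 538 and 685 on the shSca-1 arrays. The value on shLuc replicate 3 was 2.73 times that of the next highest array, and the ranges of the other arrays overlapped. The log2 fold change was -0.62 on 6 arrays (standard error 0.41, adjusted p = 0.70, limma) and -0.10 without shLuc replicate 3 (standard error 0.12, 95% interval -0.38 to 0.18, adjusted p = 0.76, limma). Probe set 1424950_at gave the same picture, with 1134 on shLuc replicate 3 against 241 to 309.5 on the other 5 arrays and a log2 fold change of 0.00 without it (standard error 0.13). A dim Sox9 probe set, 1433889_at, did not follow them and lay between 21.1 and 35.6 on all 6 arrays.

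Sox10, the SRY-box relative of Sox9 best known from neural crest and glia, was dim on every array. Its 3 probe sets lay between 1.00 and 30.9, below the array median on all 6 arrays. Probe set 1424985_a_at was 2.89, 30.9 and 20.3 on the shLuc arrays and 17.6, 20.1 and 24.8 on the shSca-1 arrays, and the shLuc arrays enclosed all 3 shSca-1 values. The log2 fold changes of the 3 probe sets ran from -1.34 to 0.76 with standard errors of 0.81 to 0.98 on 6 arrays, and from -1.59 to 1.13 with standard errors of 0.89 to 1.03 without shLuc replicate 3. Sox10 did not stand apart on shLuc replicate 3, where its probe sets were 20.3, 15.8 and 3.79.

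Foxc1, the forkhead factor of basal-like tumors, was even across the 5 arrays other than shLuc replicate 3. Probe set 1419486_at was 273, 247 and 1220.0 on the shLuc arrays and 279, 280.3 and 272.5 on the shSca-1 arrays. The 5 arrays spanned only 247 to 280.3, and shLuc replicate 3 was 4.35 times the highest of them. Without it the log2 fold change was 0.10 (standard error 0.10, 95% interval -0.14 to 0.33, adjusted p = 0.73, limma), and with it -0.65 (standard error 0.57, adjusted p = 0.77, limma). The other probe set, 1419485_at, was 98.6, 83.4 and 446 on the shLuc arrays and 94.7, 107 and 94.6 on the shSca-1 arrays, 4.18 times the next highest array on shLuc replicate 3. The genes nearest to Foxc1 over the 6 arrays were Metrnl, a secreted factor gene, and Igfbp5, an IGF-binding protein gene. Igfbp5 was 60.5, 52.8 and 296 on the shLuc arrays and 61.0, 66.7 and 64.5 on the shSca-1 arrays.

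Elf5, the ETS factor of alveolar and luminal progenitor cells, was below the array median on 5 arrays and clearly above it on shLuc replicate 3. Probe set 1419555_at was 7.96, 9.90 and 358 on the shLuc arrays and 13.6, 11.9 and 11.3 on the shSca-1 arrays. Only shLuc replicate 3 lay above the array median, and since the other values were far under it, no fold between that array and the others is given. Probe set 1419556_at, the brightest by mean log2 value, was 15.3, 11.9 and 111 on the shLuc arrays and 23.7, 20.5 and 20.4 on the shSca-1 arrays. Without shLuc replicate 3 both probe sets were higher on every shSca-1 array than on either shLuc array, as in 14.1% of all probe sets, but all of these values were under the array medians. The log2 fold change of 1419556_at was then 0.67 (standard error 0.37, adjusted p = 0.44, limma) and on 6 arrays -0.35 (standard error 0.80, adjusted p = 0.92, limma). Ehf, an ETS relative of Elf5 expressed in epithelia, reached 637 on shLuc replicate 3 against at most 10.5 elsewhere, and for Elf3 these values were 81.4 and 48.8.

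Gata3, the luminal GATA factor, has 1 probe set and was the member with the largest negative log2 fold change on 6 arrays among the brightest probe sets, without passing the test. Its intensity was 103, 85.5 and 456 on the shLuc arrays and 68.6, 90.5 and 61.5 on the shSca-1 arrays. On shLuc replicate 3 it was 4.44 times the next highest array, and shSca-1 replicate 2 lay between the first 2 shLuc arrays. The log2 fold change was -1.13 (standard error 0.61, 95% interval -2.56 to 0.30, adjusted p = 0.63, limma), and without shLuc replicate 3 it was -0.37 (standard error 0.22, 95% interval -0.87 to 0.14, adjusted p = 0.47, limma). The nearest gene in pattern was Alcam, which encodes a cell adhesion molecule, at 136, 130.1 and 604 on the shLuc arrays and 86.0, 112 and 77.7 on the shSca-1 arrays.

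Foxa1, a pioneer factor that opens chromatin for the estrogen receptor, was below the array median on all 6 arrays. Its probe set, 1418496_at, was 11.3, 8.42 and 31.5 on the shLuc arrays and 14.3, 9.63 and 10.9 on the shSca-1 arrays. The signal peaked on shLuc replicate 3, where it was still dim. The log2 fold change was -0.33 (standard error 0.55, adjusted p = 0.88, limma) and 0.23 without that array (standard error 0.47, adjusted p = 0.87, limma).

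Esr1, the gene of estrogen receptor alpha, spanned the narrowest range of intensities over the 6 arrays among the 9 brightest probe sets, and shLuc replicate 3 did not stand out in it. Its brightest probe set, 1460591_at, was 127, 126 and 122 on the shLuc arrays and 109.9, 122 and 133 on the shSca-1 arrays. The groups overlapped, around a mean of 125 ± 2.94 (SD, n = 3) for shLuc and 122 ± 11.4 (SD, n = 3) for shSca-1, and the log2 fold change was -0.04 (standard error 0.14, 95% interval -0.38 to 0.30, adjusted p = 0.95, limma). Probe set 1435663_at was 64.2, 56.9 and 60.4 on the shLuc arrays and 35.3, 55.6 and 40.4 on the shSca-1 arrays. Here every shSca-1 array was below every shLuc array, and the log2 fold change was -0.49 both on 6 arrays (standard error 0.23, adjusted p = 0.59, limma) and without shLuc replicate 3 (standard error 0.26, adjusted p = 0.42, limma). The third probe set, 1421244_at, lay between 17.6 and 44.6 with overlapping groups and a log2 fold change of -0.02. The genes nearest to Esr1 in pattern were Slc30a6, a zinc transporter gene, and Ube3b, a ubiquitin ligase gene, each close to even across the arrays.

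Pgr, the gene of the progesterone receptor, was below the array median on 5 arrays in its brightest probe set. Probe set 1439527_at was 28.9, 26.5 and 244 on the shLuc arrays and 29.0, 28.4 and 34.4 on the shSca-1 arrays. Only shLuc replicate 3 lay above the array median, and the other arrays of the groups overlapped. The log2 fold change was -0.91 on 6 arrays (standard error 0.82, adjusted p = 0.78, limma) and 0.14 without shLuc replicate 3 (standard error 0.29, 95% interval -0.53 to 0.80, adjusted p = 0.87, limma). The other probe sets, 1421444_at and 1455772_at, were also highest on shLuc replicate 3, at 46.3 and 23.1, against at most 37.0 and 18.9 elsewhere. Their lowest values, 2.65 and 2.15, fell on shLuc replicates 1 and 2, and their log2 fold changes were 0.99 and 0.62 on 6 arrays (adjusted p = 0.80 and 0.86, limma) and 1.85 and 1.27 without shLuc replicate 3 (adjusted p = 0.33 and 0.53, limma).

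**Figure D3:**
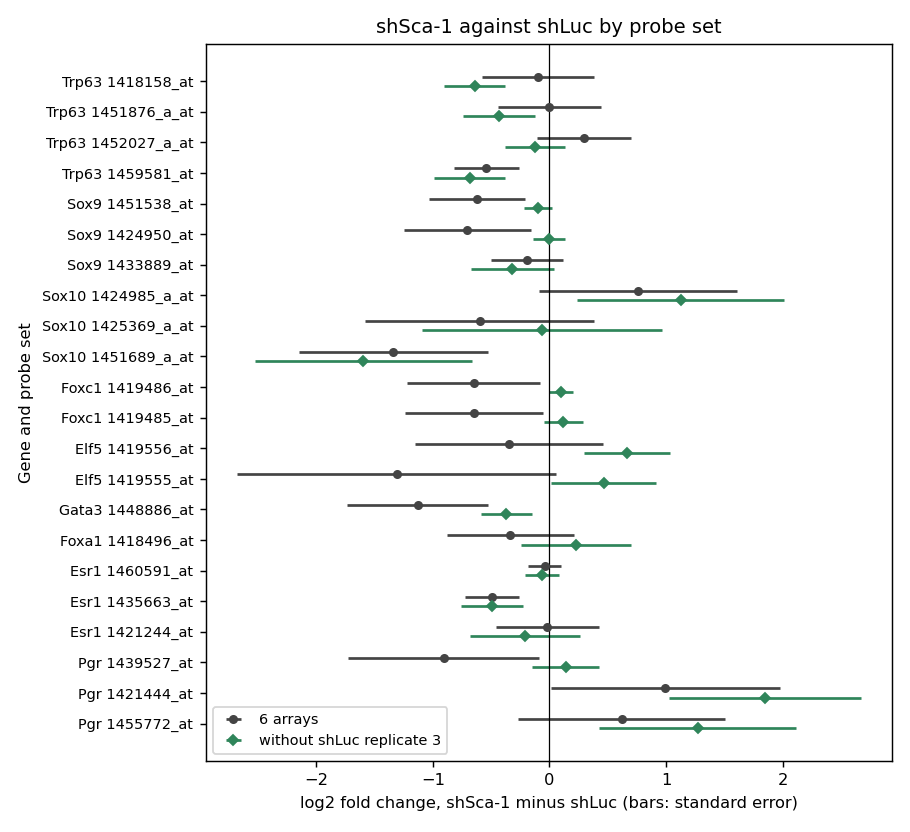
Difference in mean log2 intensity (shSca-1 minus shLuc) for each of the 22 probe sets, with bars for the standard error from limma, on 6 arrays (dark grey circles) and without shLuc replicate 3 (green diamonds). Elf5 1419555_at moves from -1.31 to 0.47 and Gata3 from -1.13 to -0.37, while the Esr1 probe set 1460591_at stays at -0.04 and -0.06. The 0.47 of Elf5 rests on values that were all under the array medians.

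Across the members, shLuc replicate 3 was the array that most often stood apart. In 5 of the 9 genes, namely Sox9, Foxc1, Elf5, Gata3 and Pgr, the brightest probe set was at 100 or more on this array and over 2 times every other array, a condition met by 3.27% of all 18194 genes. In 8 of the 22 probe sets the condition was met, as in 2.40% of all probe sets. Of the other 5 arrays, shSca-1 replicate 3 had the most genes apart by the same condition, 0.203% of all genes, and none of the members. Trp63 was the 1 gene of the 9 that was lowest on shLuc replicate 3, as were 24.2% of all genes, and the next lowest array was 1.56 times as high. Highest there were 6 of the 9, against 29.3% of all genes. Of these 6, Foxa1 stayed too dim for the condition. Esr1 and Sox10 were not highest on this array and did not meet the condition. The median log2 difference of this array from the mean of the other 5 was 1.62 over the 9 genes and 0.05 over all genes. No test was made of 1 array against the others.

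The promoters of Gata3, Foxc1 and Foxa1 are printed because these 3 of the 6 genes that were highest on shLuc replicate 3 hold letters matching motifs of other members' families. The sequences are the 250 bases before the RefSeq gene start (GRCm38.p6), which the reference table holds for 7 of the 10 genes, with 11 starts. It holds none for Trp63, Sox9 and Sox10, so Sox9, which was also highest on shLuc replicate 3, was not searched. Motifs of the members' families were searched on both strands, and capitals mark the matches. They were CCGGAA for ETS factors such as Elf5, found in 12.0% of 32851 promoters of this length, AGATAA for GATA factors (9.99%), TGTTTAC for forkhead factors (3.17%), ACAAAG for SOX factors (16.5%), the palindromic estrogen response element (0.0639%) and TTCNNNGAA for STAT5, which acts downstream of Prlr (7.02%).
Gata3, chr2:9878601-9878850, minus strand: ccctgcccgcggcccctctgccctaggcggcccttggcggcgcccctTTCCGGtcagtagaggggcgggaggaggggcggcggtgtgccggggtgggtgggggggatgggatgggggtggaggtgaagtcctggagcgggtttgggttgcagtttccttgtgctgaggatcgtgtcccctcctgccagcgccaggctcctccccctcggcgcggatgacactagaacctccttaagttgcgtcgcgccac
Foxc1, chr13:31806396-31806645, plus strand: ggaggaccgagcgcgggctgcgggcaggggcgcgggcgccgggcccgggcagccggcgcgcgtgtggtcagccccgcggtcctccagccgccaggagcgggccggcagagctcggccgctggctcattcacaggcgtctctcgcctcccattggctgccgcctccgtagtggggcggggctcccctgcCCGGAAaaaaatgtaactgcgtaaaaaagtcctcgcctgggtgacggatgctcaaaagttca
Foxa1, chr12:57546112-57546361, minus strand: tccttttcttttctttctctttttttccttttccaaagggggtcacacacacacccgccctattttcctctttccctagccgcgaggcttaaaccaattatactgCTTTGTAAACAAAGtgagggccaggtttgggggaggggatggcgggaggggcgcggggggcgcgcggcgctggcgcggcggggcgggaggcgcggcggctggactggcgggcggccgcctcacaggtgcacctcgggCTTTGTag
The capitals are the ETS letters in Gata3 (read on the opposite strand) and in Foxc1, beginning 203 and 62 bases before the start. In Foxa1 they are the forkhead letters 141 bases before the start, which overlap SOX letters on either side, and SOX letters 8 bases before the start. The 2 promoters of Elf5 and that of Pgr held none of the 6 motifs. The GATA letters and the estrogen response element were in none of the 11 promoters, the STAT5 letters were in 1 promoter each of Esr1 and Prlr, and that of Prlr held the forkhead letters too. Of the 11 promoters, 2 held the ETS letters, 2 the forkhead letters, 1 the SOX letters and 2 the STAT5 letters. The shares of all promoters were 12.0%, 3.17%, 16.5% and 7.02%. The share of all promoters that hold any of the 6 motifs was not computed, so the count of genes printed has no share beside it. A match describes the letters only and is not evidence of binding.

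Genes that work with the members were taken as 6 lists of relatives, partners, targets and cell layer genes, with 152 measured genes in all. At the study's thresholds on 6 arrays, 2 of the 152 were lower and 0 higher, against 1.52% of all genes lower and 0.528% higher. They were Krt17, a basal keratin gene, whose log2 fold change was -0.75 (standard error 0.15, adjusted p = 0.23, limma), and Grhl1, an epithelial grainyhead factor gene, with -1.98 (adjusted p = 0.35, limma). Krt17 was 1583, 1655 and 1454 on the shLuc arrays and 831, 825 and 1171 on the shSca-1 arrays, so the groups did not overlap. Grhl1 was 102, 99.3 and 245 on the shLuc arrays and 18.65, 29.8 and 72.4 on the shSca-1 arrays. Without shLuc replicate 3 Grhl1 had -1.56 (unadjusted p = 0.015, limma) and did not meet the study's thresholds. Without shLuc replicate 3, 10 of the 152 passed the same thresholds, 9 lower and 1 higher, against 2.92% and 1.08% of all genes.

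Of 27 p63 targets and basal cell genes, 3 were lower and 1 was higher at an adjusted p under 0.05 without shLuc replicate 3, against 2.73% and 1.17% of all genes. Dst, which encodes the hemidesmosomal linker dystonin, was 3524 and 3410.1 on shLuc replicates 1 and 2, 322 on shLuc replicate 3, and 1254.5, 1328 and 1974 on the shSca-1 arrays. The log2 fold change of Dst was -1.22 without shLuc replicate 3 (adjusted p = 0.016, limma) and -0.08 with it (adjusted p = 0.99, limma). The other lower genes were Krt17 (-0.80, adjusted p = 0.037, limma) and Acta2, the smooth muscle actin of myoepithelial cells (-0.66, adjusted p = 0.037, limma), and Lamb3, a laminin chain gene, was higher (0.65, adjusted p = 0.0089, limma). On 6 arrays Acta2 had -0.36 (adjusted p = 0.72, limma) and Lamb3 had 1.21 (adjusted p = 0.47, limma). On shLuc replicate 3 itself, 9 of the 27 were under 0.5 times every other array, as in 2.24% of all genes, among them Dst, the basal factor gene Snai2 at 356 and Krt5 at 3141. The smooth muscle gene Tagln went the other way, with 648 on that array against at most 120.0 elsewhere. The basal keratin genes Krt14 and Krt17 were not under 0.5 times every other array. On shLuc replicate 3 Krt14 was 7779, against 10092.5 to 11849 elsewhere, and Krt17 was 1454, against 825 to 1655. The list's median log2 fold change was 0.14 on 6 arrays and -0.22 without that array.

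Of 24 measured relatives of the members, 1 was lower at an adjusted p under 0.05 without shLuc replicate 3 and none was higher. This 1 gene stands against 2.73% of all genes lower and 1.17% higher, so a count of 1 is near that share. It was Nr3c1, the glucocorticoid receptor gene, a nuclear receptor like Esr1 and Pgr. Nr3c1 was 927 and 874 on shLuc replicates 1 and 2, 353 on shLuc replicate 3 and 489, 581 and 619 on the shSca-1 arrays, and the log2 fold change was -0.68 without shLuc replicate 3 (adjusted p = 0.024, limma) and -0.23 on 6 arrays (adjusted p = 0.87, limma). The brightest probe set of Foxa3, a relative of Foxa1, was higher on each shSca-1 array (28.2, 27.0 and 27.2) than on the shLuc arrays (15.2, 12.6 and 6.72), all dim, and did not pass (adjusted p = 0.36, limma). On shLuc replicate 3, 1 of the 24, Ehf, was at 100 or more and over 2 times every other array, as in 3.27% of all genes. Foxc2, a relative of Foxc1, went the other way, at 231 against 527 to 795 elsewhere. It was the 1 of the 24 under 0.5 times every other array with those all at 100 or more, as in 2.24% of all genes. The list's median log2 difference of this array from the mean of the other 5 was -0.05.

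Of 23 measured partners and targets of the estrogen and progesterone receptors, 1 was lower at an adjusted p under 0.05 without shLuc replicate 3 and none was higher. The share of all genes that were lower was again 2.73%, so a count of 1 is near it. Wnt4, which relays the progesterone signal in the mammary gland, was 544 and 579 on shLuc replicates 1 and 2, 72.6 on shLuc replicate 3 and 275, 313 and 367 on the shSca-1 arrays. For this gene the log2 fold change was 0.15 on 6 arrays (adjusted p = 0.97, limma) and -0.83 without shLuc replicate 3 (adjusted p = 0.022, limma). The coactivator gene Ncoa1 had -0.51 on 6 arrays (adjusted p = 0.31, limma) and -0.56 without that array (adjusted p = 0.057, limma). On 6 arrays 3 of the 23 were lower at an unadjusted p under 0.05 and none was higher, beside 10.6% of all genes in either direction. Apart from Ncoa1 they were Ctsd, the gene of the protease cathepsin D, with -0.55 (adjusted p = 0.36, limma) and Myb, a transcription factor gene, with -1.58 (adjusted p = 0.53, limma), and without shLuc replicate 3 these had -0.40 and -0.78 (adjusted p = 0.10 and 0.21, limma). The estrogen-responsive genes Greb1 and Tff1 had log2 fold changes of 0.05 and 0.09 on 6 arrays and 0.32 and 0.14 without shLuc replicate 3, none of which passed. On shLuc replicate 3, 4 of the 23, Cxcl12, Myb, Igfbp4 and Igfbp5, were at 100 or more and over 2 times every other array, with Igfbp4 at 2954 against at most 75.5. That condition was met by 3.27% of all genes. Wnt4 was the 1 of the 23 under 0.5 times every other array with those all at 100 or more, as in 2.24% of all genes.

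Of 26 genes of prolactin signaling and milk, 0 passed an adjusted p under 0.05 in limma on 6 arrays or without shLuc replicate 3, and 0 and 2 had an unadjusted p under 0.05, where 10.6% and 19.8% of all genes did. The 2 were Socs3 (log2 fold change -0.49, adjusted p = 0.22, limma) and Ptpn1 (-0.30, adjusted p = 0.20, limma). On 6 arrays Socs3 had -0.31 and Ptpn1 had -0.06 (adjusted p = 0.72 and 0.95, limma). The list's median log2 fold change was -0.18 on 6 arrays, with 21 of the 26 below 0, and -0.10 without shLuc replicate 3. Over all genes the median was -0.04 in both cases. Of the 26, 11 were under 100 on all 6 arrays. The share of all genes below 0 is not given here, so the count below 0 is not read as a result. Stat5a, which carries the signal of Prlr, was 255, 277 and 184 on the shLuc arrays and 267, 272 and 243 on the shSca-1 arrays, with a log2 fold change of 0.15 on 6 arrays (adjusted p = 0.84, limma) and -0.03 without shLuc replicate 3 (adjusted p = 0.94, limma). On shLuc replicate 3, 2 of the 26 were at 100 or more and over 2 times every other array, as in 3.27% of all genes. These were the milk genes Csn3 (247) and Ltf (145), at most 37.2 and 23.7 elsewhere, while Csn2 and Wap were at most 15.6 and 25.0 on any array. Of 25 partners and targets of Sox9 and Sox10, 1 was lower at an adjusted p under 0.05 without shLuc replicate 3 and none was higher. As 2.73% of all genes were lower, a count of 1 is near that share. It was Zeb2, which encodes a transcription factor, with a log2 fold change of -0.68 (adjusted p = 0.041, limma). On 6 arrays Zeb2 had 0.10 (adjusted p = 0.97, limma). On shLuc replicate 3, 4 of the 25, Col9a1, Col11a1, Mia and Erbb3, were at 100 or more and over 2 times every other array, with Erbb3 at 665 against at most 34.6. There 3 of the 25, Zeb1, Zeb2 and Twist2, were under 0.5 times every other array with those all at 100 or more. The shares of all genes were 3.27% and 2.24%. Of 27 luminal epithelial markers, 19 were at 100 or more and over 2 times every other array on shLuc replicate 3, as in 3.27% of all genes. Among them were the keratin gene Krt18 (7175 against at most 65.2) and Cdh1, the gene of E-cadherin (4482 against at most 60.3). Esrp2, Grhl2 and Ovol1 did not rise there. They were 275, 145 and 100.8, against 192 to 311, 135 to 186 and 87.5 to 154 elsewhere. Without that array 0 of the 27 passed an adjusted p under 0.05 in limma, against 3.90% of all genes. An unadjusted p under 0.05 was reached by 1, against 19.8%.

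**Figure D4:**
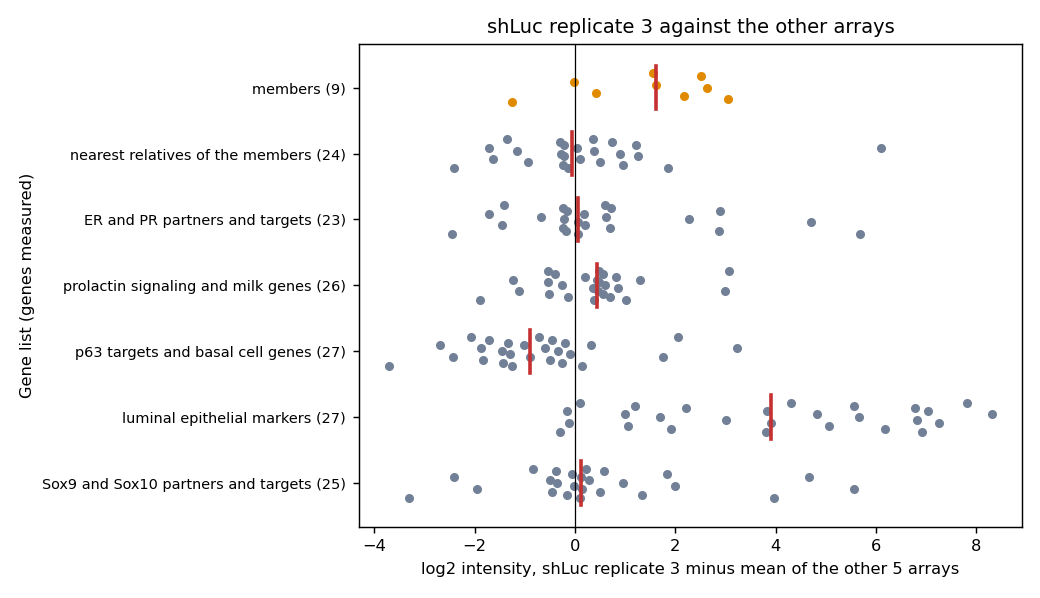
Log2 intensity on shLuc replicate 3 minus the mean of the other 5 arrays, for the 9 members (orange) and the genes of 6 lists (grey), with red lines for medians and the number of measured genes in parentheses. The members have a median of 1.62, the luminal epithelial markers 3.90 and the basal cell genes -0.89.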

How the data were processed

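The authors hybridized RNA from 6 samples to Affymetrix arrays and computed intensities with dChip (PM-MM model, invariant set normalization). The deposited values are linear intensities of 45101 probe sets. No genome build, detection call or batch is given for them in the sources used here. From these, 64 control probe sets were left out, the lowest intensity allowed was 1, and the values were log2-transformed. For the comparison of the groups, limma 3.58.1 (R 4.3.3) fitted each probe set by lmFit and moderated its variance by eBayes, trend included, with Benjamini-Hochberg adjustment over 45037 probe sets. Of these, 34945 had 1 gene symbol in the array's annotation, 932 several and 9160 none. Only those with 1 symbol were named, besides that of Ly6a, named through a supplementary table of the paper. Every probe set of a member was kept, with no filter on dim values, so all 22 entered the tests. The members and lists were chosen with earlier results of these data known. Named genes were drawn from the members, Ly6a, up to 4 genes per list with the smallest p in each of the main comparisons, Krt5, Krt14, Krt8, Krt18, Cdh1 and the 2 genes nearest in pattern to members with a mean intensity of 100 or more. Not all of these are named in the results. Others (Ehf, Elf3, Greb1, Tff1, Igfbp4, Cxcl12, Stat5a, Csn2, Csn3, Wap, Snai2, Twist2, Col11a1, Mia, Cd14, Csf1r, Adgre1, Cd68, Eng, Pecam1 and Ptprc) were picked with their values known. As alternatives, arrays were left out in turn, the replicate number was a block, arrays were quantile-normalized or median-centred, intensities were floored at 16 or 64, probe sets under the 40th percentile were dropped, the variance was moderated without trend or robustly, the methods' t-test replaced limma, folds came from arithmetic means, and a gene's probe sets were averaged. The number of arrays limits the precision.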

Additional observations from a re-analysis of the deposited data

How the results depend on the processing

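No member probe set had an adjusted p under 0.05 in limma under any alternative run. At an unadjusted p under 0.05, the count of the 9 member genes was 0 under every alternative that kept all arrays and 0 to 1 when 1 array was left out (Trp63 without shLuc replicate 3, Gata3 without shLuc replicate 2), and that of the 22 probe sets was also 0 and 0 to 1. The further probe sets were Sox10 1451689_a_at without shSca-1 replicate 3 and Esr1 1435663_at when shSca-1 replicate 2 was left out. At the study's thresholds the count of member genes was 0 throughout. The count of 5 genes apart on shLuc replicate 3 was 5 after quantile normalization, after centring and with a floor of 16, and 4 with a floor of 64. The list genes at the study's thresholds, 2 lower and 0 higher, were 1 with a filter at the 40th percentile, 0 with a floor of 64, 0 by the methods' t-test, 1 lower and 1 higher with a floor of 16, with the mean of all probe sets, without a trend, with robust variance or after quantile normalization, 2 lower and 1 higher after centring, and 0 to 10 when 1 array was left out (3 without shLuc replicate 1, 1 without shLuc replicate 2, 10 without shLuc replicate 3, then 1, 0 and 4 on leaving out shSca-1 replicates 1, 2 and 3). The causes were not tested. The targeted gene, Ly6a, passed an adjusted p under 0.05 after centring (log2 fold change -4.11), with the filter (-4.17) and with robust variance (-4.17), and had -4.64 to -3.92 when 1 array was left out. When 1 array was left out, the log2 fold change ran from -0.83 to 0.67 for Wnt4 and from -0.68 to 0.57 for Zeb2, with the negative values without shLuc replicate 3. Foxa3 passed an adjusted p under 0.05 with a floor of 16 (log2 fold change 0.78, adjusted p = 0.0046, limma). That floor set all its shLuc values (15.2, 12.6 and 6.72) to 16 and left them no spread, so this pass is not read as a result. For Trp63 1418158_at the log2 fold change ran from -0.64 to 0.18. Same-numbered arrays had correlations of their deviations from the group means of -0.04, -0.02 and -0.03, so the numbers were not taken as pairs, and with a replicate block the counts were 0 member genes, 0 member probe sets and 2 list genes, while Ly6a had -4.17 (adjusted p = 0.21, limma). Dim signals limit what can be said of Sox10, Foxa1, and, outside shLuc replicate 3, Elf5 and Pgr.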
